A study of Mus musculus with 8 samples.

Results

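The enteroendocrine transcription factors Neurog3, Neurod1, Insm1, Pax4, Isl1, Nkx2-2, Fev and Rfx6 were followed together with the homeodomain factor Prox1 in Paneth cells of the mouse small intestine. The 9 genes were taken by name from the 53801 genes of the count table, by a rule that sets no limit on their values, and all 9 passed the filter on low counts that left 13439 genes for testing. RNA was sequenced from Paneth cells sorted from 4 β-catGOF; Mll1+/- mice (controls 1 to 4) and 4 β-catGOF; Mll1-/- mice (knockouts 1 to 4), at 10 d from the induction of Cre by 1 mg tamoxifen on each of 3 days. All mice of both groups carried the stabilized β-catenin allele, in which Cre removes the third exon, so the comparison asks what the second Mll1 allele contributes where Wnt signalling is already high. The mice were young, a few weeks old, and Cre was driven from Lgr5-EGFP-IRES-CreERT2, an allele that is active in Lgr5+ stem cells and is silent in part of the crypts. Each library came from a small pool of viable EpCAM+ Cd24+ cells, a gate in which enteroendocrine cells can also fall. The labels name the groups by genotype; the methods, where they describe the sort, name littermates with floxed Mll1 alleles and leave out the β-catenin allele. Controls are labelled Mll1+/- and are therefore heterozygous, not wild type.

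Enteroendocrine cells are the hormone-producing cells of the gut epithelium and arise, like Paneth and goblet cells, from secretory progenitors that have escaped Notch signalling and express Atoh1. Neurog3, a basic helix-loop-helix factor, is expressed briefly in the progenitor and is required for the lineage; it acts upstream of Neurod1, Insm1, Pax4, Isl1, Nkx2-2 and Rfx6, which carry differentiation on, and Fev is an ETS factor of serotonin-producing cells. Prox1 is known for lymphatic endothelium and, in the intestine, for enteroendocrine cells and as a target of β-catenin and Tcf in tumours. Mll1 (Kmt2a) is a histone H3 lysine methyltransferase that binds unmethylated CpG through its CXXC domain.

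Positions are those of the count table, on mm10 (GRCm38). Neurog3 (ENSMUSG00000044312) lies on chromosome 10 from 62133090 to 62134763, and Rfx6 (ENSMUSG00000019900) on the same chromosome from 51677756 to 51730432. Neurod1 (ENSMUSG00000034701, from 79452521 to 79456751), Insm1 (ENSMUSG00000068154, from 146221921 to 146225020) and Nkx2-2 (ENSMUSG00000027434, from 147177546 to 147194243) are on chromosome 2. Prox1 (ENSMUSG00000010175, from 190118035 to 190170714) and Fev (ENSMUSG00000055197, from 74881509 to 74885419) are on chromosome 1. Pax4 (ENSMUSG00000029706) is on chromosome 6 from 28442334 to 28449353 and Isl1 (ENSMUSG00000042258) on chromosome 13 from 116298281 to 116309689. The strand setting of the counting was not given, so reads on shared exon bases cannot be assigned with certainty. Neurog3 shared 16.3% of its exon bases with Fam241b on the other strand, Nkx2-2 shared 9.67% with Nkx2-2os, Neurod1 shared 7.37% with Cerkl on its own strand, and Prox1 shared 1.59% with the antisense gene Prox1os. These are the largest shares with any other gene. Prox1os received between 2 and 19 counts in a library, against 186 to 2062 for Prox1. The other 5 genes shared no exon base with another gene.

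Because Mll1 binds CpG-rich DNA, the 250 bases before the transcript start of 3 genes are shown with their CpG dinucleotides in capitals: Prox1, whose level was higher in 3 of 4 knockouts, Neurog3, which was lower in each knockout, and Rfx6, whose window held the fewest CpG of those matched. The sequences are from RefSeq on GRCm38.p6, 5′ to 3′ on the strand of the gene, and hold no exon base of the count table.
Prox1, chr1:190170828-190171077, minus strand: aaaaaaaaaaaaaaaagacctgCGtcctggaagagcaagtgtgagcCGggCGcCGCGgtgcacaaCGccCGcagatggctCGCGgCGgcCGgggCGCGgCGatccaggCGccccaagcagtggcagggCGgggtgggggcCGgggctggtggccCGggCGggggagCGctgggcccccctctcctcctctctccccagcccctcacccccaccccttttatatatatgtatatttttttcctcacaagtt
Neurog3, chr10:62132840-62133089, plus strand: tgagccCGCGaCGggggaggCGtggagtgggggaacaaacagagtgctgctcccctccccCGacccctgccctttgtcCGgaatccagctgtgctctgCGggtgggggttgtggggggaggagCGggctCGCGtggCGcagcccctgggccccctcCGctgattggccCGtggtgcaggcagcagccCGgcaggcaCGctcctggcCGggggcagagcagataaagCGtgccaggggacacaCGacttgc
Rfx6, chr10:51685268-51685517, plus strand: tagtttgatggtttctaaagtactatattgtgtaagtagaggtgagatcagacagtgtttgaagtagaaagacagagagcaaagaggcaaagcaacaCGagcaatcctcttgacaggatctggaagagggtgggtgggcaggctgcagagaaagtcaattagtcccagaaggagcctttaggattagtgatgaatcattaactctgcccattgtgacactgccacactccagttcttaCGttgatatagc
The Prox1 window held 20 CpG and the Neurog3 window 18, more than 82.1% and 78.3% of 32851 mouse promoter windows of this length, whose median was 6. The Rfx6 window held 2 CpG, more than 18.8% of the windows; it begins inside the span of the gene in the count table. Among all 9 genes 7 were matched in the promoter table, with 8 windows because Prox1 has a second start, and Insm1 and Pax4 were not matched. In 5 of these 8 windows the CpG count was above that of 75% of all windows, and their GC content lay between 44.0% and 71.2%, where the median of all windows was 52.4%. The E-box CAGATG, searched on both strands, occurred in the windows of Prox1 (179 bases before the start) and Nkx2-2 (220 bases before it) and in 14.4% of all windows. The Tcf/Lef core CTTTGA, searched likewise, occurred in none of the 8 windows and in 13.8% of all windows.

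The libraries held between 13037832 and 14380240 counts on genes, of which 76.3% to 87.8% fell on the 50 most abundant genes. Levels are given as normalized CPM, that is, CPM of the library size scaled by edgeR's TMM factor, and 3 counts equal 0.172 to 0.352 of these units, depending on the library. Knockout 3 stood apart from the other libraries, with 19662 genes counted (22623 to 26074 in the others), a TMM factor of 0.632 (0.822 to 1.336) and a mean distance to the other libraries of 105.6 on log2 levels (69.3 to 74.3), so results are also given without it. The Paneth genes Defa24 and Lyz1 were among the most abundant in every library, with 3180968 counts or more of Defa24. Kmt2a, summed over its exons, had 268 to 719 counts in controls and 328 to 523 in knockouts (log2 fold change -0.06 ± 0.24, SE), a sum that cannot tell whether the floxed exons were removed. Counts are of PCR-amplified cDNA, so limits from counts cover counting error only. In bulk RNA of sorted cells, fewer cells of a type and less RNA per cell cannot be told apart.

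Neurod1, which drives enteroendocrine differentiation downstream of Neurog3, had the largest log2 fold change of the 8 enteroendocrine factors with all libraries in edgeR; with limma-voom Fev was larger (-2.65 against -2.30), and without knockout 4 Pax4 (-2.53) and Neurog3 (-2.46) were. Its levels were 24.8, 22.1, 56.9 and 42.1 normalized CPM in controls 1 to 4 and 12.5, 3.73, 5.40 and 8.43 in knockouts 1 to 4. Every knockout lay below every control, and controls 3 and 4 were the highest. The mean was 36.5 ± 16.2 in controls and 7.53 ± 3.86 in knockouts (SD, n = 4 each). The ratio of these means was 4.85-fold, and the fitted log2 fold change was -2.27 ± 0.40 (SE). With edgeR's quasi-likelihood test and Benjamini-Hochberg adjustment over all 13439 genes the adjusted p was 0.0629, just above the limit of 0.05; without knockout 3 the log2 fold change was -2.15 and the adjusted p 0.0885. DESeq2's Wald test gave an adjusted p of 9.65e-06 and limma-voom one of 0.0295, both within the limit. Over all 17 alternatives the adjusted p lay between 4.93e-16 and 0.303. The lower end came only from edgeR without a filter on low counts (37039 genes tested), and with a filter the DESeq2 value was the lowest.

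Insm1, a zinc-finger repressor that acts with Neurod1 in endocrine differentiation, had 9.59, 9.68, 21.6 and 13.02 normalized CPM in controls 1 to 4 and 6.00, 0.919, 3.64 and 5.03 in knockouts 1 to 4. The groups did not overlap, and knockout 2 was the lowest library. The means differed 3.46-fold, and the fitted log2 fold change was -1.78 ± 0.48 (SE), with an adjusted p of 0.338 in edgeR and 0.02999 in DESeq2. Over all alternatives the adjusted p lay between 5.83e-06, in edgeR without a filter on low counts, and 0.638. With a filter the DESeq2 value was the lowest. Neurog3, at the head of the lineage, was sparse: it had 20, 16, 27 and 47 counts in controls 1 to 4 and 12, 6, 0 and 17 in knockouts 1 to 4. In normalized CPM these were 1.25, 1.27, 2.42 and 3.71 against 0.713, 0.345, 0 and 1.03, again without overlap, and the count of 0 in knockout 3 allows a level of up to 0.352. Its log2 fold change was -1.96 ± 0.72 (SE) with an edgeR adjusted p of 0.577, and -1.63 without knockout 3, so a difference was not established by the test. For Neurod1, Insm1 and Neurog3 the exact two-sided permutation test on the levels gave p = 0.0286, the smallest that 4 against 4 libraries can give; 9 genes were tested in this way and these p-values are not adjusted.

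**Figure D1:**
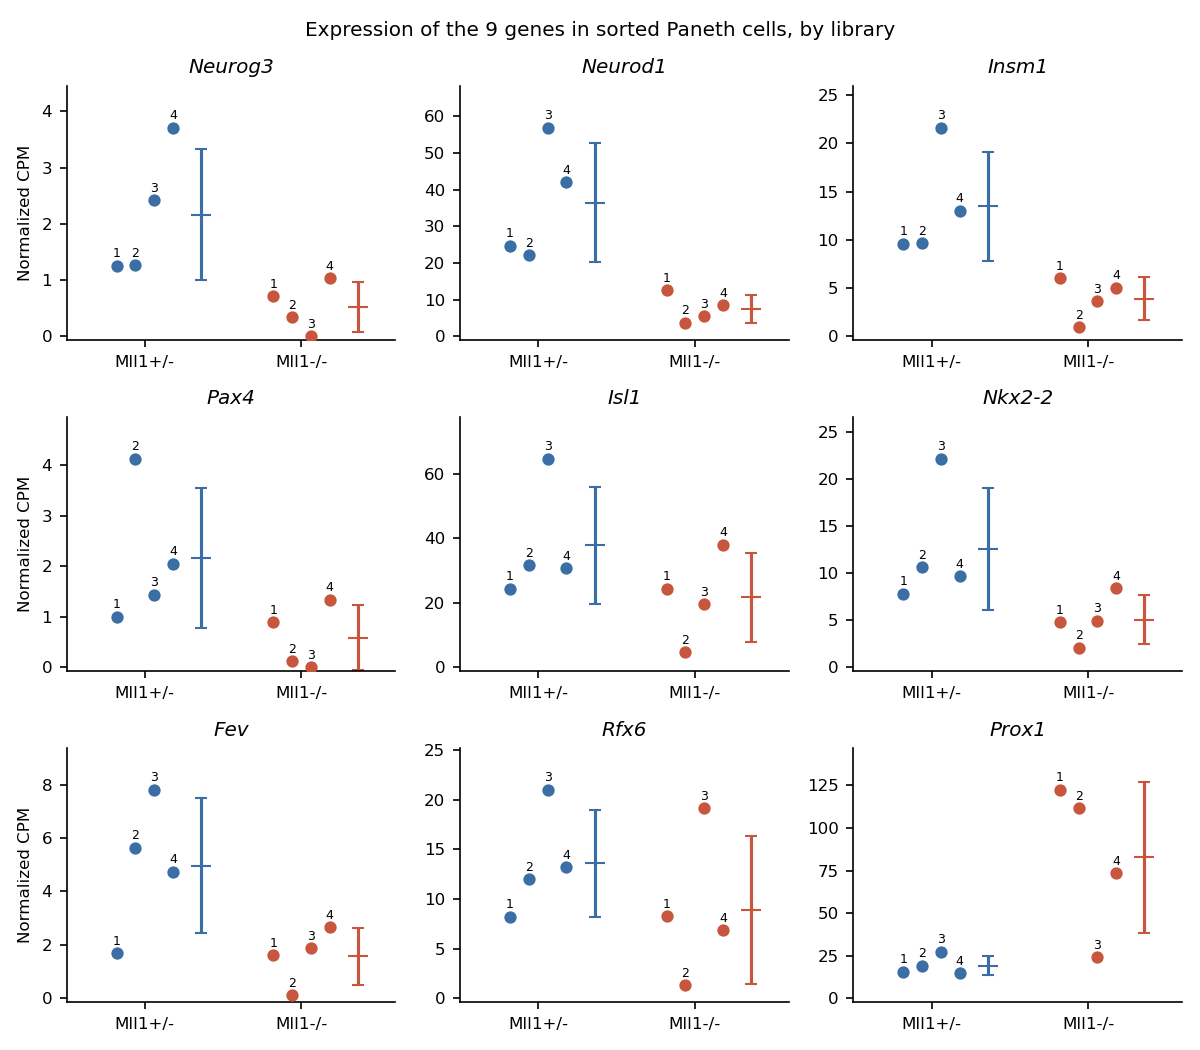
Normalized CPM of each of the 9 genes (vertical axis, from 0, with its own scale in each panel) in the 4 Mll1+/- and 4 Mll1-/- libraries; points are libraries with their replicate number, and the bar to the right of each group is the mean ± SD. In Neurog3, Neurod1 and Insm1 all knockouts lie below all controls, and in Prox1 knockouts 1, 2 and 4 lie between 73.4 and 122 while knockout 3, at 24.3, lies among the controls.

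The groups of the remaining factors overlapped over all 8 libraries. The libraries carry label numbers in 2 runs, with 2 libraries per genotype in each, and within each run Nkx2-2, Fev and Pax4 were lower in both knockouts than in both controls. This held in both runs for 6 of the 9 genes, with Neurod1, Insm1 and Neurog3, and for 4.45% of all genes tested. The means were 2.68-fold and 2.40-fold lower for Nkx2-2, 4.26-fold and 2.76-fold lower for Fev, and 5.10-fold and 2.61-fold lower for Pax4, in the first and the second run. Nkx2-2, a homeodomain factor needed for several hormone-producing types, had 7.83, 10.6, 22.2 and 9.71 normalized CPM in controls 1 to 4 and 4.81, 2.07, 4.93 and 8.37 in knockouts 1 to 4. Over all libraries only knockout 4 reached into the range of the controls. Its log2 fold change was -1.31 ± 0.43 (SE; edgeR adjusted p = 0.479). Fev had 1.69, 5.63, 7.81 and 4.74 normalized CPM in controls 1 to 4 and 1.604, 0.115, 1.88 and 2.67 in knockouts 1 to 4. Control 1 lay among the knockouts, and the log2 fold change was -1.67 ± 0.68 (SE; edgeR adjusted p = 0.662). Pax4, a paired-homeodomain repressor of early endocrine progenitors, was as sparse as Neurog3, with 16, 52, 16 and 26 counts in controls 1 to 4 and 15, 2, 0 and 22 in knockouts 1 to 4. Its level was highest in control 2, at 4.13 normalized CPM, and 3 of 4 knockouts lay below every control. The log2 fold change was -1.80 ± 0.83 (SE; edgeR adjusted p = 0.729).

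Isl1 and Rfx6 overlapped between the genotypes in both runs as well. Isl1, a LIM-homeodomain factor, had 24.3, 31.7, 64.6 and 30.7 normalized CPM in controls 1 to 4 and 24.4, 4.77, 19.5 and 38.03 in knockouts 1 to 4. Knockout 4 was above 3 of the controls, and the log2 fold change of -0.80 ± 0.49 (SE) had an edgeR adjusted p of 0.853. It was -0.42 without control 3, -0.46 without knockout 2 and -1.23 without knockout 4. Rfx6, a winged-helix factor of endocrine progenitors and hormone-producing cells, had 8.21, 12.0, 21.0 and 13.2 normalized CPM in controls 1 to 4 and 8.26, 1.32, 19.1 and 6.85 in knockouts 1 to 4. Knockout 3 was here the second-highest of all libraries, and the log2 fold change was -0.64 ± 0.57 (SE; edgeR adjusted p = 0.923). Without knockout 3 it was -1.31 (adjusted p = 0.391, and 0.235 or more under every alternative), and it was -0.27 without knockout 2 and -0.35 without control 3, so its size depended on each of these libraries.

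Prox1 was the only one of the 9 genes with a positive log2 fold change. Its levels were 15.6, 19.2, 27.3 and 14.7 normalized CPM in controls 1 to 4 and 122, 112, 24.3 and 73.4 in knockouts 1 to 4. Knockouts 1, 2 and 4 lay above every control, and knockout 3 lay within the range of the controls. The mean was 19.2 ± 5.73 in controls and 82.9 ± 44.4 in knockouts (SD, n = 4 each). The ratio of these means was 4.32-fold, and the fitted log2 fold change was 2.12 ± 0.42 (SE), with an edgeR adjusted p of 0.101. Without knockout 3 the log2 fold change was 2.42 ± 0.24 (SE) and the edgeR adjusted p 0.000304, past the limit. With all libraries DESeq2 gave an adjusted p of 9.19e-05 and limma-voom one of 0.00353. Over all 17 alternatives the adjusted p lay between 4.28e-06, in edgeR without a filter on low counts, and 0.345. With a filter the DESeq2 value was the lowest. With the run of label numbers as a block no call among the 9 genes changed. Within the first run the mean of Prox1 was 6.72-fold higher in knockouts without overlap, and within the second, which holds knockout 3, it was 2.33-fold higher with overlap. Neurod1 was 2.88-fold lower in the first run and 7.15-fold lower in the second, without overlap in either, and the same held for Insm1 (2.79-fold and 3.99-fold) and Neurog3 (2.39-fold and 5.95-fold).

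**Figure D2:**
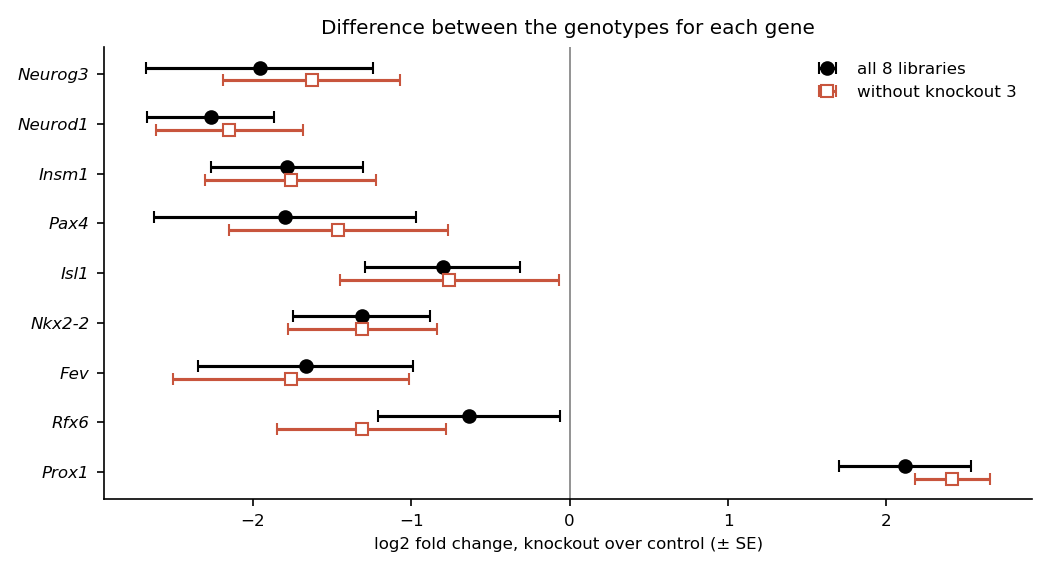
log2 fold change of knockouts over controls (horizontal axis) for each gene, with bars of ± SE, from edgeR on all 8 libraries (black circles) and without knockout 3 (open squares). The 8 enteroendocrine factors lie below 0, from -0.64 for Rfx6 to -2.27 for Neurod1, and Prox1 lies at 2.12, or 2.42 without knockout 3.

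Prox1 also marks lymphatic endothelium. Among the 10 lymphatic and endothelial markers 9 were at 0 in at least one library, Ccl21a was at 0 in all, and Flt4 and Pdpn, which define lymphatic vessels, had at most 3 counts and 1 count in a library. Lyve1 had up to 7 counts in controls and up to 14 in knockouts, the highest in knockout 2. The summed level of the list was 3.63 to 7.33 normalized CPM in controls and 5.51 to 7.40 in knockouts, most of it Pecam1, an endothelial marker with 41 to 85 counts in every library. The part of these cells in the level of Prox1 was not tested. Of the 10 neural and glial markers 5 were tested and none had an unadjusted p of at most 0.05. Sox10 was at 0 in all libraries. Uchl1, which was too low to be tested, had 2, 0, 2 and 0 counts in controls 1 to 4 and 10, 23, 35 and 7 in knockouts 1 to 4, every knockout above every control. Elavl4 had 21, 19, 17 and 24 counts in controls and 20, 8, 1 and 15 in knockouts, and every knockout lay below every control in normalized CPM. The summed level of the list was 6.66 to 16.1 in controls and 6.83 to 9.70 in knockouts.

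None of the 9 genes passed both limits in edgeR's test, which were 0.05 for the adjusted p and 0.5 for the size of the log2 fold change. Over all genes tested these limits were passed by 21 genes higher (0.156%) and 4 genes lower (0.0298%) in knockouts. At an unadjusted p of at most 0.05, 5 of the 8 enteroendocrine factors were lower (Neurod1, Insm1, Nkx2-2, Neurog3 and Fev), where 2.53% of all genes tested were, and Prox1 was higher, where 4.35% were. Complete separation with every knockout below every control held for 3 of the 9 genes and for 1.93% of all genes tested; the reverse held for none of the 9 and for 2.59% of all. DESeq2 called Neurod1 and Insm1 lower, where 0.283% of its tested genes were called, and Prox1 higher, where 0.745% were. limma-voom called Neurod1 lower, where 0.126% of genes were, and Prox1 higher, where 0.58% were. Without knockout 3 edgeR called Prox1 higher, where 0.944% of genes were, and none of the 9 lower, where 0.135% were; 6 of the 8 factors were then lower at an unadjusted p of at most 0.05, Rfx6 now among them, where 4.85% of genes were. Over the alternatives this count lay between 3 and 8: it was 3 without control 3 (2.15% of all genes), without control 4 (2.36%), with total counts (0.499%) and, of 5 tested, with at least 10 counts in every library (2.68%), and it was 8 with limma-voom (5.71%). The median log2 fold change of the 8 factors was -1.73, against 0.0085 over all genes tested, and all 8 were negative, as were 49.1% of all genes tested. The 8 factors were measured in the same cells and are not replicates of the comparison.

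The same libraries were high or low for most of the factors. Control 3 was highest for 6 of the 8, and controls 2 and 4 for 1 each. Knockout 2 was lowest for 6, and knockout 3 for Neurog3 and Pax4. Summed over the 8 factors the level was 78.7, 97.1, 198 and 119 normalized CPM in controls 1 to 4 and 59.2, 13.4, 54.5 and 71.8 in knockouts 1 to 4. Knockout 2, which had the least of these factors, had the second-highest level of Prox1.

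Divided by exon length, the order of the mean levels in controls was Neurod1, Isl1, Nkx2-2, Insm1, Rfx6, Fev, Prox1, Pax4 and Neurog3. Neurod1 stood at 13.4 ± 5.95 normalized CPM per kb (SD, n = 4), above 91.6% of the genes tested, and Neurog3 at 1.29 ± 0.70, above 46.3%. Only the step from Isl1, at 9.55 ± 4.59, to Nkx2-2, at 4.38 ± 2.26, was larger than the SD of either neighbour; all other neighbours were closer than the larger SD of the pair, and Nkx2-2 and Insm1 (4.35) were almost level. Prox1 stood in the seventh place in controls and in the first in knockouts, with 2.29 ± 0.68 per kb in controls and 9.88 ± 5.29 in knockouts. Isl1 followed Prox1 in knockouts at 5.47 ± 3.47, a step smaller than the SD of Prox1, so their order there is not firm. Neurod1 stood at 2.76 ± 1.42.

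**Figure D3:**
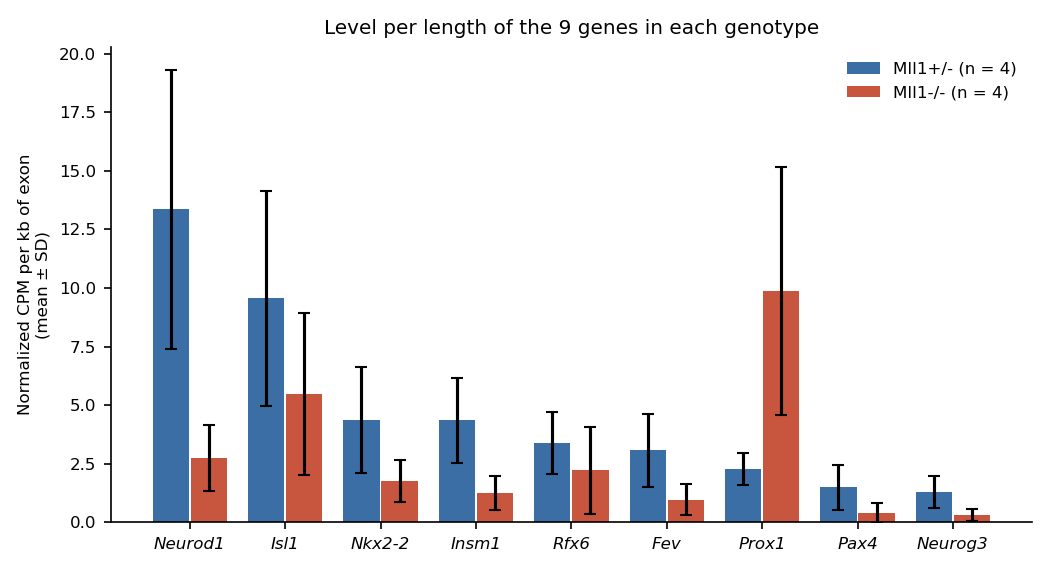
Mean level per length (vertical axis, normalized CPM per kb of exon, from 0) of each gene in Mll1+/- and Mll1-/- libraries, with bars of ± SD over 4 libraries each. Neurod1 is the tallest bar in controls at 13.4, and Prox1 is the tallest in knockouts at 9.88.

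Of 20 other enteroendocrine regulators 15 were tested, and 13 of these had a negative log2 fold change, with a median of -0.84 against 0.0085 over all genes tested. edgeR called 0 of them. At an unadjusted p of at most 0.05, 2 were lower, where 2.53% of all genes tested were, and DESeq2 and limma-voom called Foxa1 alone, where 0.283% and 0.126% of all genes were called lower. Foxa1, a forkhead factor of secretory and endocrine cells and the most abundant of the list, was at 26.6 normalized CPM in controls and 15.7 in knockouts on average, without overlap (log2 fold change -0.76 ± 0.17, SE; edgeR adjusted p = 0.150, and 0.0424 without knockout 3). Runx1t1 was the other, at -1.03 ± 0.39 (adjusted p = 0.595). Pax6, a homeodomain factor of hormone-producing cells, had a log2 fold change of -1.05 ± 0.59 (SE; adjusted p = 0.827) and did not pass. Egr3, an immediate early zinc-finger factor, had the largest positive value, 1.87 ± 0.95 (adjusted p = 0.787).

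Of 12 secretory and Notch genes 11 were tested, with 5 positive and 6 negative log2 fold changes and a median of -0.04. Atoh1, the master factor of the secretory lineage, was at 0.18 ± 0.30 (SE), Sox9 at -0.11 ± 0.16 and Spdef at 0.10 ± 0.36, each smaller than its error. edgeR and DESeq2 called 0 of the list and limma-voom called Hes1, where 0.58% of all genes were called higher. Hes1, the Notch effector that represses Atoh1 and Neurog3, had 736, 365, 346 and 452 counts in controls 1 to 4 and 1494, 1493, 192 and 1796 in knockouts 1 to 4. Its high libraries were those in which Prox1 was high, and knockout 3 was again the exception. The log2 fold change was 1.11 ± 0.38 (SE) with an edgeR adjusted p of 0.502, and 1.41 with 0.00238 without knockout 3. Bhlha15 (Mist1), a factor of secretory cells, was at -0.52 ± 0.24 (adjusted p = 0.724), and these were the 2 genes of the list with an unadjusted p of at most 0.05, which 4.35% of all genes reached as higher and 2.53% as lower.

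**Figure D4:**
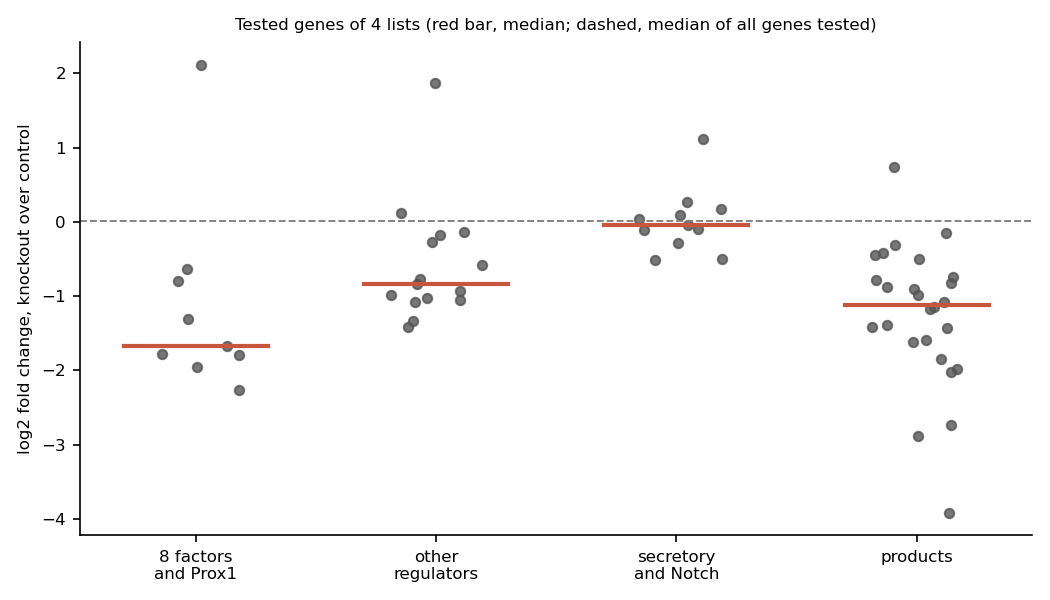
log2 fold change of knockouts over controls (vertical axis) for each tested gene of 4 lists, the 8 factors with Prox1 (9 genes), other enteroendocrine regulators (15), secretory and Notch genes (11) and enteroendocrine products (26). Red bars are medians, at -1.67, -0.84, -0.04 and -1.11, and the dashed line is the median of all genes tested.

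Enteroendocrine products, the hormones and the granule and secretion proteins of these cells, were in 25 of 26 tested genes at a negative log2 fold change, with a median of -1.11. edgeR called 0 of them, and 13 were lower at an unadjusted p of at most 0.05, where 2.53% of all genes tested were. DESeq2 called Rab3c and Chga lower, where 0.283% of all genes were, and limma-voom called Ddc, where 0.126% were. Rab3c, a small GTPase of secretory vesicles, had 75, 31, 63 and 65 counts in controls 1 to 4 and 26, 6, 3 and 6 in knockouts 1 to 4 (log2 fold change -2.73 ± 0.56, SE; edgeR adjusted p = 0.121). Tph1, the rate-limiting enzyme of serotonin synthesis in enterochromaffin cells, had 113, 129, 151 and 284 counts in controls and 53, 0, 0 and 2 in knockouts 1 to 4. Tac1, the substance P precursor of the same cells, had 123 to 538 counts in controls and 183, 15, 9 and 2 in knockouts 1 to 4. Neither passed with all libraries (adjusted p = 0.316 and 0.579), and without knockout 1 edgeR gave adjusted p of 0.00117 and 0.0114. Without knockout 3 edgeR called 3 products lower, Ddc (adjusted p = 0.0265), Rab3c (0.0455) and Snap25 (0.0466), where 0.135% of all genes were; the log2 fold change of Snap25, a membrane fusion protein of secretion, was then -2.11 and with all libraries -0.91. Chromogranin A (Chga) was at 25.5 normalized CPM in controls and 6.43 in knockouts on average (log2 fold change -1.98 ± 0.57, SE; edgeR adjusted p = 0.387). The most abundant hormones also varied widely between libraries of one genotype: Gip had 3239 to 14065 counts in controls and 4 to 14315 in knockouts, and Ghrl and Sst ranged from 204 to 7137 and from 1 to 8323 in knockouts.

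The summed product level was 1210, 2512, 2367 and 1707 normalized CPM in controls 1 to 4 and 1135, 114, 2866 and 503 in knockouts 1 to 4, overlapping between the genotypes (exact two-sided permutation test, p = 0.286). The sum is unweighted, and its most abundant genes were Gip, Ghrl and Sst, at 585, 279 and 240 normalized CPM on average over the 8 libraries. It therefore follows these hormones more than the other products. Knockout 3 had the highest sum of all libraries, largely Gip and Ghrl, and few counts of Neurod1 and Insm1. Its Chga (5.52), Tac1 (1.06), Rab3c (0.352) and Tph1 (0) lay below every control. Other products did not, such as Snap25, at 7.28 above every control. Rfx6 followed the product level over the 8 libraries, with Pearson's r = 0.961 (exact permutation p = 0.000397, 0.00278 after Benjamini-Hochberg adjustment over 7 genes) and Spearman's rho = 0.857 (p = 0.0107, adjusted 0.0750). Without knockouts 2 and 4, the libraries farthest from the median product level on the log2 scale, r for Rfx6 was 0.860 (exact permutation p = 0.05). Without knockout 2 alone r for Rfx6 was 0.859 and no longer passed (adjusted exact permutation p = 0.0722). For Fev, Isl1 and Nkx2-2 r was 0.765, 0.727 and 0.670 and rho 0.619, 0.190 and 0.524, and no exact permutation p was at most 0.05 after adjustment (0.0671, 0.0955 and 0.0955 for r, 0.344, 0.665 and 0.344 for rho). Without those same libraries r was 0.530, 0.254 and 0.335. Without knockout 2 alone it was 0.416, -0.039 and 0.226, and without knockout 4 alone 0.806, 0.860 and 0.726, so these relations rested on knockout 2. For Neurod1, Insm1 and Prox1 r was 0.600, 0.745 and -0.70 and rho 0.357, 0.429 and -0.55, with adjusted exact permutation p of 0.110, 0.0671 and 0.0671 for r and 0.454, 0.419 and 0.344 for rho. Without knockouts 2 and 4 r was -0.11, 0.0075 and -0.40. All these correlations, that of Rfx6 included, pooled both genotypes, and no relation with the product level within a genotype was tested. Neurod1 and Insm1 did not overlap between the genotypes. Neurog3 and Pax4 were left out because they had no count in knockout 3.

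**Figure D5:**
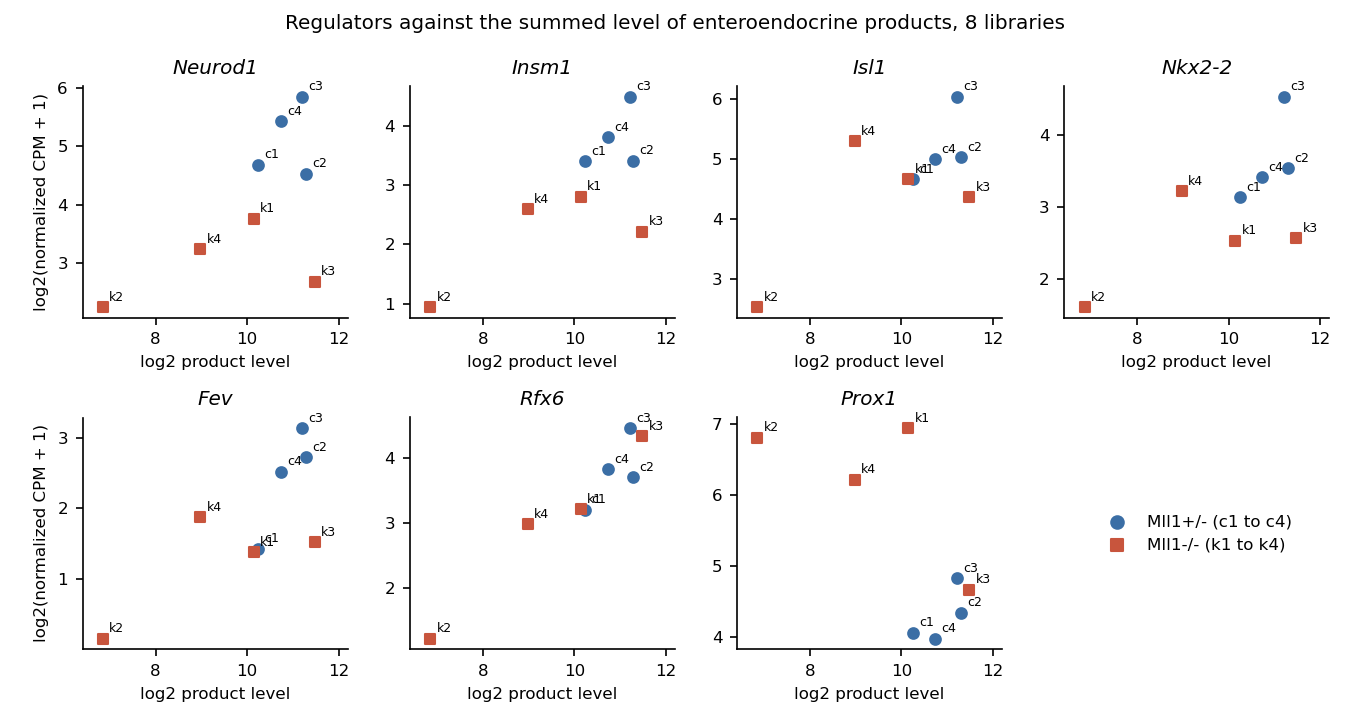
log2(normalized CPM + 1) of 7 genes (vertical axes) against the log2 of the summed level of 30 enteroendocrine products (horizontal axes), one point per library, controls as circles and knockouts as squares. Rfx6 lies along a line, with r = 0.961, while knockout 3 has the highest product level, largely Gip and Ghrl, and low Neurod1 and Insm1.

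Over the 8 libraries, with both genotypes together, the genes whose log2 level was most like that of each member were found among all genes tested. These values are descriptions, share library size and genotype, and carry no test. Neurod1 was most like Ric3 (r = 0.964) and Il17re (0.963), followed by Insm1 (0.962). Insm1 was most like Fam183b (0.979), Neurod1 and Trim32 (0.953). Fuom was the nearest gene to both Nkx2-2 (0.982) and Fev (0.988). Rfx6 was nearest to Gfra3 (0.974), Prnp (0.974) and Pax6 (0.971). Isl1 was nearest to Slc6a19 (0.960), Neurog3 to Tmem181a (0.969) and Pax4 to 4930406D18Rik (0.962). Among the genes nearest to Prox1 were Scd1 (0.972) and Lmo7 (0.968), and among the other 8 genes its r was negative with each, from -0.42 with Pax4 to -0.65 with Rfx6.

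Other cell types were followed through their markers. The EpCAM+ gate selects epithelial cells, and the cells were also stained for CD45. All 9 tested tuft markers had a negative log2 fold change, between -1.09 and -0.68, with 1 at an unadjusted p of at most 0.05, where 2.53% of all genes tested were lower, and their summed level was 221 to 727 normalized CPM in controls and 132 to 475 in knockouts. Of 6 tested enterocyte markers 3 were lower at that limit, with summed levels of 163 to 357 and 126 to 261, and of 10 stem cell markers 3 were lower and 1 was higher, with 822 to 1675 and 356 to 1086. Of 10 goblet markers 2 were lower at that limit, with summed levels of 10143 to 22799 and 9159 to 24509. Of 10 Paneth markers none had an unadjusted p of at most 0.05, and the median was -0.12 on the log2 scale. Of 10 immune markers 3 were tested and none was at that limit. Ptprc, the gene of CD45, had 201, 106, 43 and 37 counts in controls 1 to 4 and 185, 157, 11 and 32 in knockouts 1 to 4. Cd74 had 19 to 257 counts in controls and 47 to 196 in knockouts, while Cd3e had at most 1 count in a library. edgeR called 0 genes of these lists, and the part of these cell types in the values of the enteroendocrine factors was not tested.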

How the data were processed

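RNA of sorted Paneth cells was read out with Smart-seq2, in which polyadenylated RNA is copied and amplified by PCR. The authors aligned the reads to mm10 with GSNAP and deposited raw counts of uniquely mapped reads per gene (featureCounts 1.6.3, Ensembl annotation); per the file headers nothing was normalized, and the strand setting was not given. Of 53801 genes 53620 were matched to a symbol by Ensembl identifier, and 92 spike-in rows were left out. Samples were grouped by the genotype in the labels. Replicate numbers are names and pair no libraries. The titles of control 4 and knockout 4 share a number but differ in genotype. What this number stands for is not stated, and it was not used. If it names an animal, a genotype label or the independence of these libraries is in doubt, which was not tested. Libraries were treated as separate mice, and p-values measure the spread between mice only if they were. No 2 libraries agreed within sampling noise (smallest chi-square per degree of freedom 10.8).

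Counts were tested with edgeR 4.0.16 in R 4.3.3 (TMM factors, robust quasi-likelihood fit, filterByExpr at min.count 10 and min.total.count 15), with Benjamini-Hochberg adjustment over all genes tested. The SE of a log2 fold change was taken as its size over the square root of F. Alternatives were DESeq2 1.42.0, limma 3.58.1 (voom with quality weights), other scalings and filters, the run of label numbers as a block and each library left out. Scripts were tested on simulated data. The 9 genes are all described; of other lists the rule names genes called in edgeR with all libraries, of which there were none, and up to 3 of the most abundant. The other genes named were chosen after their values were seen. The 9 genes and the other lists were chosen with earlier results of these data known. Some genes were tested and counted but are not reported here. Correlations used log2(normalized CPM + 1).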

Additional observations from a re-analysis of the deposited data

Results flagged for a closer look

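In none of the 9 genes did a library stand apart from the other 3 of its genotype by Dixon's 95% limit, which compares its gap to the nearest library with the range of the group. Of 58 groups looked at, over the members, the example genes and the summed marker lists, 8 passed the limit, where chance gives about 1 in 20, or 2.9. Knockout 3 stood apart in 5 of them. Its Gip level was 1682 normalized CPM against at most 203 in the other knockouts (gap over range 0.879), and its Ghrl level was 838 against at most 134 (0.852). Its summed Paneth markers were 764482 against 246658 to 334884 (0.830), its summed immune markers, most of them Lyz2, were 631 against 177 to 235 (0.871), and its summed lymphatic markers were 7.40 against 5.51 to 5.64 (0.931). In knockout 1 Sst was at 494 against at most 24.6 in the other knockouts (0.951). In knockout 2, the library with the least of 6 of the 8 enteroendocrine factors, the other enteroendocrine regulators summed to 73.4 against 109 to 115 (0.871). In control 4 the enterocyte markers summed to 163 against 324 to 357 in the other controls (0.830).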

How the results depend on the processing

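The direction of each of the 9 genes was kept under each of the 17 alternatives in which it was tested; with at least 10 counts in every library Neurog3, Pax4 and Fev were not tested. Neurod1 passed both limits under 6 of them, Prox1 under 4, Insm1 under 2, Nkx2-2 and Fev under 1 each, and the other 4 genes under none. Of the 9 genes, 1 passed with upper-quartile factors (20 genes higher and 5 lower overall), 1 with at least 10 counts in every library (9 higher and 4 lower of 9909), 5 without a filter on low counts (where 221 genes were called higher and 69 lower overall), 3 with DESeq2 and 2 with limma-voom. At an edgeR adjusted p of at most 0.1 with no fold limit 1 passed, but the share of all genes is not given, so this count cannot be judged. The cause of these differences was not tested. Of the other regulators 1 passed with DESeq2 and 1 with limma-voom. Of the secretory and Notch genes 1 passed without a filter and 1 with limma-voom. Of the products 5 passed without a filter, 2 with DESeq2 and 1 with limma-voom. With each library left out in turn 0 to 1 of the 9 genes, 0 to 1 other regulators, 0 to 1 secretory and Notch genes and 0 to 3 products passed, where 9 to 133 genes were called higher and 1 to 19 lower overall. Neurod1 passed without knockout 1 (adjusted p = 0.0363; 12 genes higher and 9 lower of 13801) and Prox1 without knockout 3 (0.000304; 133 higher and 19 lower of 14086). The log2 fold change of Rfx6 was -0.27 without knockout 2 and -1.31 without knockout 3. The correlation of Isl1 with the product level ranged from -0.039 (without knockout 2) to 0.860 with each library left out. That of Rfx6 was 0.859 without knockout 2 (adjusted exact permutation p = 0.0722). Without knockout 3 those of Neurod1, Insm1, Nkx2-2 and Fev passed (0.893, 0.939, 0.831 and 0.879), again with both genotypes pooled. Scaling by total counts moved the median of all genes to 0.25, beside which the median of the 8 factors was -1.42. No paired analysis was possible because the labels carry no replicate numbers; the run of label numbers was fitted as a block instead and changed no call among the 9 genes. Neurog3 and Pax4 had 0 to 52 counts in a library, and whether depth or the spread between mice limits their tests was not tested.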
